A study of Mus musculus with 4 samples.

Results

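The V segments of the alpha and beta chains of the T-cell receptor were taken as all genes whose mouse symbol starts with Trav or Trbv followed by a digit. This gave 163 of the 54752 genes in the count files, 128 Trav segments on chromosome 14 and 35 Trbv segments on chromosome 6, of which 130 were annotated as genes and 33 as pseudogenes. The rule reads the symbols alone. The Trav segments lay at chr14:52427928-53977678 and the Trbv segments at chr6:40891229-41558452 (GRCm38). The starting material was naive CD4+ T cells taken by magnetic isolation from the spleen of wild-type (WT) littermates and of Mek1/2-tKO mice, which carry the Cd4-Cre transgene (Cd4-Cre+) and are fl/fl for Map2k1 as well as for Map2k2, on a C57BL/6 background. Cells of both genotypes were activated with plate-bound anti-CD3 and with anti-CD28 under conditions that polarize T follicular helper (Tfh) cells, namely IL-6 together with blocking antibodies to the cytokines TGF-β, IL-4, IFN-γ and IL-2. On day 3 the viable cells were sorted and their mRNA was sequenced in bulk, in 2 libraries per genotype. Cd4-Cre is active from the double-positive stage of T-cell development. The age of the mice and whether the 2 libraries of a genotype came from separate mice or cultures are not given in the sources used here, so the p-values measure only the spread between these libraries, which may be technical.

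Each alpha-beta T cell builds its receptor genes by joining 1 V segment to a J segment on the alpha chain, and to D and J segments on the beta chain, in front of a constant gene (Trac, or Trbc1 or Trbc2). The V segment encodes most of the variable domain, including the loops that contact the major histocompatibility complex, and a naive T-cell population uses many segments at once. A read over a V exon therefore counts mRNA from all cells that chose that segment. The alpha locus also holds the delta locus: segments with dv in their symbol can join to either chain and occur in gamma-delta T cells too. In C57BL/6 mice a stretch of the Trav cluster is repeated, and the letters d and n mark the repeated copies. Usage below means the share of all Trav counts, or of all Trbv counts, that fell on a segment. In bulk RNA a lower level from fewer cells that use a segment and a lower level from less RNA per cell cannot be told apart.

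The libraries held 16330802 to 18931090 counts. Values with ± after a log2 fold change are standard errors, and adjusted p values are those of the edgeR quasi-likelihood fit, corrected by the Benjamini-Hochberg method over all tested genes. The targeted gene Map2k1 had 3540 and 3612 counts in WT and 1517 and 1973 in Mek1/2-tKO (log2 fold change -0.86 ± 0.082, adjusted p = 1.29e-06). Map2k2 had 3011 and 3175 counts against 2660 and 3426 and was not called lower (0.15 ± 0.080, adjusted p = 0.126). The counts are per gene and do not show a deleted part alone, so neither value checks the labels. Why Map2k2 was not lower was not tested. Cd4, the coreceptor that the cells were selected for, had 5788 and 5581 counts in WT against 291 and 472 in the libraries labelled tKO (-3.73 ± 0.12, adjusted p = 2.43e-11). This marker of the labelled cell type was thus low in both libraries labelled tKO, and every direction given here is between libraries so labelled. Markers of other lymphocytes differed too. The B-cell markers Cd79a, Cd79b, Ms4a1 and Pax5 were called higher. Cd79a, a chain of the B-cell receptor complex, had 1107 and 1137 counts in WT and 9753 and 11534 in Mek1/2-tKO (3.43 ± 0.080, adjusted p = 1.5e-12), and Pax5, the transcription factor of B-cell identity, had 1061 and 973 against 1440 and 2244 (1.02 ± 0.12, adjusted p = 7.45e-06). All 4 NK-cell markers were called higher (64.7 and 66.8 CPM against 461 and 425), as were both CD8 T-cell markers (67.4 and 59.2 against 238 and 214) and all 5 gamma-delta T-cell markers (6.97 and 4.35 against 184 and 165). Most of the NK-cell sum was Nkg7 alone (62.7 and 65.1 CPM against 436 and 405). The next highest in Mek1/2-tKO, Ncr1, had 0.769 and 0.829 CPM against 11.5 and 9.84. Of the 7 alpha-beta T-cell markers 3 were called lower (Trac, Cd3e and Cd4), with summed levels of 1514 and 1488 CPM against 1211 and 1066. Of all genes tested, 19.3% were called higher and 16.4% lower. Some markers could be tested only through their counts in Mek1/2-tKO. These include the NK-cell marker Klra8 (4 and 5 counts against 129 and 85) and the gamma-delta marker Sox13 (2 and 4 against 24 and 24). None of the genes in these lists was at 0 in every library. The part of other cells in the V segment results was not tested.

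The sequences of segments with marked gains or losses, and of close relatives that were not called or had no counts, are given first, so that the reads behind each value can be located. They are the last coding exon of each segment, which encodes the V domain, cut to its last 300 bases where it is longer. They are read 5′ to 3′ from the GENCODE M21 transcripts of GRCm38. Trbv12-1 (chr6:41113775-41114067, + strand) and Trbv12-2 (chr6:41119072-41119364, + strand) were the 2 members of the beta locus called higher. Capitals mark the 32 bases at which they differ over 293 aligned bases (89.1% identity).
Trbv12-1: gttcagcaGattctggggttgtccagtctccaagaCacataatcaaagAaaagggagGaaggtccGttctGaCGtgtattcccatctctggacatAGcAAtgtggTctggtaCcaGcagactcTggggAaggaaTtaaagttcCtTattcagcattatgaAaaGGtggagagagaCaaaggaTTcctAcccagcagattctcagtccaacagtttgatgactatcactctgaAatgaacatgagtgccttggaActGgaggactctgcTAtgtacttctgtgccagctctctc
Trbv12-2: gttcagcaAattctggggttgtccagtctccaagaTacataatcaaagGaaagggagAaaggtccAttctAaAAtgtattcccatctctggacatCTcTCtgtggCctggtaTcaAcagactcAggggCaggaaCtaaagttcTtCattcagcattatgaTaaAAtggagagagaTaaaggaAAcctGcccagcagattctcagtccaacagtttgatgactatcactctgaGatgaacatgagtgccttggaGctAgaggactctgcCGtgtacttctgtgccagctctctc
Trbv31 (chr6:41557691-41557981, - strand) was the Trbv segment with the largest fall. It is the only V segment downstream of the beta constant genes and lies in the opposite orientation to the other segments used here.
Trbv31: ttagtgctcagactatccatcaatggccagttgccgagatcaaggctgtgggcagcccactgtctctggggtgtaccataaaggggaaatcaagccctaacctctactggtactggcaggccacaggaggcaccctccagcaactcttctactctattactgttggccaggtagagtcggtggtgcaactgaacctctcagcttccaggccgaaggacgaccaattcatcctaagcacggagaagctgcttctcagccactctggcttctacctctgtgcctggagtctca
Trav13-4-dv7 (chr14:53757643-53757921, + strand) had the largest gain in usage of any V segment in percentage points. It is shown with Trav13-2 (chr14:53635121-53635399, + strand) of the same family, from which it differs at 12 of 279 bases, in capitals (95.7% identity).
Trav13-4-dv7: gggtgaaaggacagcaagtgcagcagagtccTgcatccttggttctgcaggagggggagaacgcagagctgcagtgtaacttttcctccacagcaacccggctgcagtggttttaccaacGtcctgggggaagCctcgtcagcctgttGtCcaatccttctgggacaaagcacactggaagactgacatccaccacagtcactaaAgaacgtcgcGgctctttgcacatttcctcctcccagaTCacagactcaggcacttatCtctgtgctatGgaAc
Trav13-2: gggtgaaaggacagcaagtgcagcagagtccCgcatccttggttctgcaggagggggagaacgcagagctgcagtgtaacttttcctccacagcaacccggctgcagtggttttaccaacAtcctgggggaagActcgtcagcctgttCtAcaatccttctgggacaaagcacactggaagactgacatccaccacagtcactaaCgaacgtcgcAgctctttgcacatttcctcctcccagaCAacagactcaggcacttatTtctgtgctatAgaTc
Trav15-1-dv6-1 (chr14:53559948-53560247, + strand) and Trav15-2-dv6-2 (chr14:53649695-53649994, + strand) both rose. Capitals mark the 64 mismatches over 297 aligned bases and the bases without a partner (77.7% identity). Both are shown over 300 bases, so bases without a partner at the start may have one outside the stretch shown.
Trav15-1-dv6-1: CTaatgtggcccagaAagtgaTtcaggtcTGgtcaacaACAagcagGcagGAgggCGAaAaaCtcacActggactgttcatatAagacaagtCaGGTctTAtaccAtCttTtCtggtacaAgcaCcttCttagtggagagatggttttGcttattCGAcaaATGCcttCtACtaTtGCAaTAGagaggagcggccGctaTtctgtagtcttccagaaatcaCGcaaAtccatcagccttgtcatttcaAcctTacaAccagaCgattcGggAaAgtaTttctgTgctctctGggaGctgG
Trav15-2-dv6-2: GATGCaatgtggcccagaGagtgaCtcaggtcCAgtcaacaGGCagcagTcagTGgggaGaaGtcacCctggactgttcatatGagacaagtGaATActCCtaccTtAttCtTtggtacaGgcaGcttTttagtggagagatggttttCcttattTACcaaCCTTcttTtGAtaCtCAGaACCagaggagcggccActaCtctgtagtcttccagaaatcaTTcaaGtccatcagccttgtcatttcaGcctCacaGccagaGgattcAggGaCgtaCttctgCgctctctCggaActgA
Trav14-3 (chr14:53763395-53763694, + strand) and Trav14d-3-dv8 (chr14:53078746-53079045, + strand) had different values despite 97.3% identity. The last 300 bases of the exon are given, with the 8 differing bases in capitals.
Trav14-3: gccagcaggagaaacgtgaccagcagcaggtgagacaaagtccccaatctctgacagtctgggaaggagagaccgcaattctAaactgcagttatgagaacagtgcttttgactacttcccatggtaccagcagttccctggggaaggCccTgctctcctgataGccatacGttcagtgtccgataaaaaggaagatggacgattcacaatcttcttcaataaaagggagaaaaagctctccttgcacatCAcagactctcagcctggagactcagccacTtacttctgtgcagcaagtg
Trav14d-3-dv8: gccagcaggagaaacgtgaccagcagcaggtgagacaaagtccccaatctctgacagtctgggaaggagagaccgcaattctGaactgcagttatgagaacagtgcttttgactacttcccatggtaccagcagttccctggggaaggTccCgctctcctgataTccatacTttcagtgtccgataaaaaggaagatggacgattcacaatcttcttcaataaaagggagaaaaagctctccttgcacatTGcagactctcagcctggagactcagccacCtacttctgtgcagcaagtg
Trav11 (chr14:53519569-53519859, + strand) and its copy Trav11d (chr14:52824623-52824912, + strand) had no counts in any library. They are the same over 290 aligned bases, and the single capital marks the base by which the annotated exon of Trav11 is longer.
Trav11: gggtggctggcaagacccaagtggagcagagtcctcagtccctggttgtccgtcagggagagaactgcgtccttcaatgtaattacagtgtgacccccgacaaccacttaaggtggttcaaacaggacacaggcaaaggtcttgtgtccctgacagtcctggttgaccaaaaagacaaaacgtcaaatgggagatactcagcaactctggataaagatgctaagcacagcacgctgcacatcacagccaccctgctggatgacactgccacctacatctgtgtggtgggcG
Trav11d: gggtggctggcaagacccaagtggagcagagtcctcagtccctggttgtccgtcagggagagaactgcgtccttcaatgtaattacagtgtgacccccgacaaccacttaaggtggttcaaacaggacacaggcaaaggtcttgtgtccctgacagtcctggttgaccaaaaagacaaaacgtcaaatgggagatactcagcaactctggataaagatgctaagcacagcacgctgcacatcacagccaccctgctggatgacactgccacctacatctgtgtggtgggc

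This likeness between copies sets what could be counted, since the deposited counts hold uniquely mapped reads. Every window of 150 bases, the read length, was taken from the annotated spliced transcripts. Windows were compared by exact match among the Trav and Trbv segments alone, not with other genes. In this comparison 38 of the 128 Trav segments had no window of their own and 50 had all windows to themselves. For Trav11, 0.515% of the windows were unique, and for Trav11d none was. A count of 0 for these segments therefore does not say that they were unused. All 35 Trbv segments had every window to themselves. Among the segments described below, 96.9% of the windows of Trav13-4-dv7 and 100% of those of Trav15-1-dv6-1, Trav15-2-dv6-2, Trav21-dv12 and Trav14d-3-dv8 were unique. No exon of the 59 segments that were tested overlapped an exon of another gene in the annotation.

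Both loci had fewer V segment reads in the Mek1/2-tKO libraries, and relative to the constant genes those of the beta chain were also fewer, while for the alpha chain the direction depended on the dv segments. The 128 Trav segments together had 1366 and 1446 counts in WT and 714 and 812 in Mek1/2-tKO. Scaled to library size with TMM factors (CPM), this was 72.5 ± 3.46 CPM (SD, n = 2) against 44.6 ± 2.03, a level 1.62-fold lower. The 35 Trbv segments had 3837 and 3642 counts against 2048 and 2143, or 193 ± 5.66 CPM against 123 ± 12.8, a level 1.57-fold lower. Neither pair of genotypes overlapped. No p is given for sums over the segments.

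Trac, the alpha constant gene, had 4269 and 4431 counts in WT and 1877 and 2009 in Mek1/2-tKO and fell by 0.98 on the log2 scale (SE 0.085, adjusted p = 5.41e-07). Per 100 Trac counts there were 32.0 and 32.6 Trav counts in WT and 38.0 and 40.4 in Mek1/2-tKO, so this ratio was higher in both Mek1/2-tKO libraries. Without the dv segments it was lower in both, at 26.8 and 27.1 against 20.9 and 21.7. The beta constant genes did not follow their V segments. Trbc1 had 4212 and 3864 counts against 3928 and 3997, and Trbc2 had 7656 and 7141 against 6146 and 6597, with log2 fold changes of 0.16 ± 0.090 (adjusted p = 0.143) and -0.03 ± 0.080 (adjusted p = 0.782). Per 100 counts of Trbc1 and Trbc2 there were 32.3 and 33.1 Trbv counts in WT and 20.3 and 20.2 in Mek1/2-tKO.

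**Figure D1:**
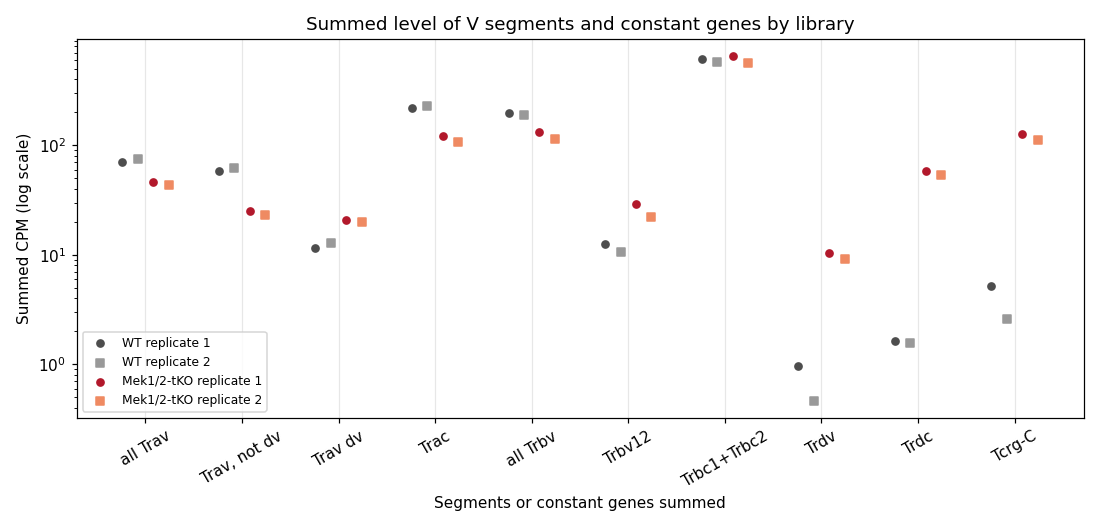
Summed CPM (log axis) of V segments and constant genes, with 1 point per library: grey for WT and red or orange for Mek1/2-tKO. The summed Trav and Trbv levels lay lower in both Mek1/2-tKO libraries, Trbc1 and Trbc2 together overlapped between genotypes, and the dv segments, Trbv12 and the gamma and delta genes (Trdv, Trdc, Tcrg-C) lay higher.

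Of the 163 segments, 59 passed the filter on low counts (40 Trav and 19 Trbv) and were tested within a fit over 14330 genes. Among the 88 Trav segments that did not pass, 33 had no counts in any library and 55 had at most 35 counts over the 4 libraries, and together they held 18.4 to 21.4% of the Trav counts in WT and 7.76 to 8.68% in Mek1/2-tKO. Among the 16 Trbv segments that did not pass, 11 had no counts and 5 had at most 22. Most pseudogenes had no reads, with 27 of 33 at 0 in every library. The call rule asked for a 1.5-fold difference or more together with an adjusted p below 0.05. By it, 26 of the 59 tested segments were lower and 6 were higher in Mek1/2-tKO, while of all genes tested 16.4% were called lower and 19.3% higher. By locus, 16 of 40 Trav and 10 of 19 Trbv segments were lower, and 4 Trav and 2 Trbv segments were higher. The median log2 fold change was -1.30 over the tested Trav segments and -0.88 over the tested Trbv segments, beside 0.02 over all genes tested. The filter passes segments with counts in 1 genotype alone, so the direction of some was set by it. Of those called lower, 3 had no counts in either Mek1/2-tKO library. With at least 10 counts required in every library, 30 segments were tested. Of these 11 were called lower and 5 higher, beside 2113 and 2363 of 12733 genes. The levels of the genotypes did not overlap, with Mek1/2-tKO lower, for 36 of the 59 segments, beside 38.8% of all genes, and with Mek1/2-tKO higher for 8, beside 39.5%.

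In the beta locus the 2 segments called higher were both of the Trbv12 family. These segments encode the Vβ5 chains. Trbv12-2 had 141 and 114 counts in WT and 290 and 287 in Mek1/2-tKO. Both Mek1/2-tKO values were above both WT values, and the segment rose by 1.37 ± 0.20 on the log2 scale (adjusted p = 5.41e-05). Trbv12-1 had 102 and 92 counts against 162 and 127 and was also called higher (0.78 ± 0.26, adjusted p = 0.0211). That call was lost without WT replicate 2 (adjusted p = 0.0734), without Mek1/2-tKO replicate 1 (0.215) and in DESeq2 (0.0775). Of all Trbv counts, Trbv12-2 took 3.67% (95% Wilson interval 2.92 to 4.61) and 3.13% (2.42 to 4.03) in WT and 14.2% (12.2 to 16.4) and 13.4% (11.5 to 15.6) in Mek1/2-tKO. The intervals rest on halved counts because most read pairs entered the counts as 2 reads, and they cover counting error only. With Trbv12-1 at 2.66 and 2.53% against 7.91 and 5.93%, the Trbv12 family as a whole made up 6.39 and 5.66% of the Trbv reads in WT and 22.1 and 19.3% in Mek1/2-tKO.

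Trbv31, which encodes Vβ14, moved the other way. It had 328 and 332 counts in WT and 62 and 63 in Mek1/2-tKO, and it fell by 2.21 ± 0.20 on the log2 scale (adjusted p = 9.71e-07). Its usage was 8.55 and 9.12% in WT and 3.03 and 2.94% in Mek1/2-tKO, with no overlap. The segments with the most reads in WT also fell. Trbv1 had 516 and 444 counts against 215 and 178 (-1.09 ± 0.18, adjusted p = 2.06e-04). Trbv3 had 440 and 370 against 156 and 170 (-1.13 ± 0.17, adjusted p = 7.48e-05), and Trbv2 had 342 and 343 against 100 and 142 (-1.33 ± 0.18, adjusted p = 3.19e-05). All 4 of these segments had lower counts in each Mek1/2-tKO library than in either WT library.

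The Trbv13 family, which encodes the Vβ8 chains, was divided by the threshold. Trbv13-2 had 357 and 422 counts against 147 and 159 and was called lower (-1.16 ± 0.17, adjusted p = 7.30e-05). Trbv13-1 had 253 and 254 against 177 and 144 (-0.46 ± 0.21, adjusted p = 0.0759) and Trbv13-3 had 137 and 174 against 106 and 90 (-0.47 ± 0.25, adjusted p = 0.131), and both were called lower once Mek1/2-tKO replicate 1 was left out. The whole family had 747 and 850 counts in WT and 430 and 393 in Mek1/2-tKO. Trbv19 (301 and 282 counts against 139 and 139; -0.88 ± 0.19, adjusted p = 0.0012) and Trbv26 (137 and 106 against 36 and 47; -1.37 ± 0.30, adjusted p = 0.00142) were lower as well. The other Trbv segments called lower were Trbv15, Trbv20 and Trbv23, each of which lost its call when at least 1 library was left out. Trbv16 had 220 and 215 counts against 153 and 191 and was not called (-0.16 ± 0.18, adjusted p = 0.475).

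Per kilobase of annotated exon, the order of the mean levels changed. In WT, Trbv1 (59.3 CPM per kb) and Trbv13-2 (59.1) led, followed by Trbv3 (45.9) and Trbv31 (40.7), and Trbv12-2 stood at rank 11 with 17.1. In Mek1/2-tKO, Trbv12-2 led with 44.1 CPM per kb, Trbv1 followed with 28.0, and Trbv31 stood at rank 14 with 8.79. The difference between Trbv1 and Trbv13-2 in WT was smaller than the spread between libraries.

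**Figure D2:**
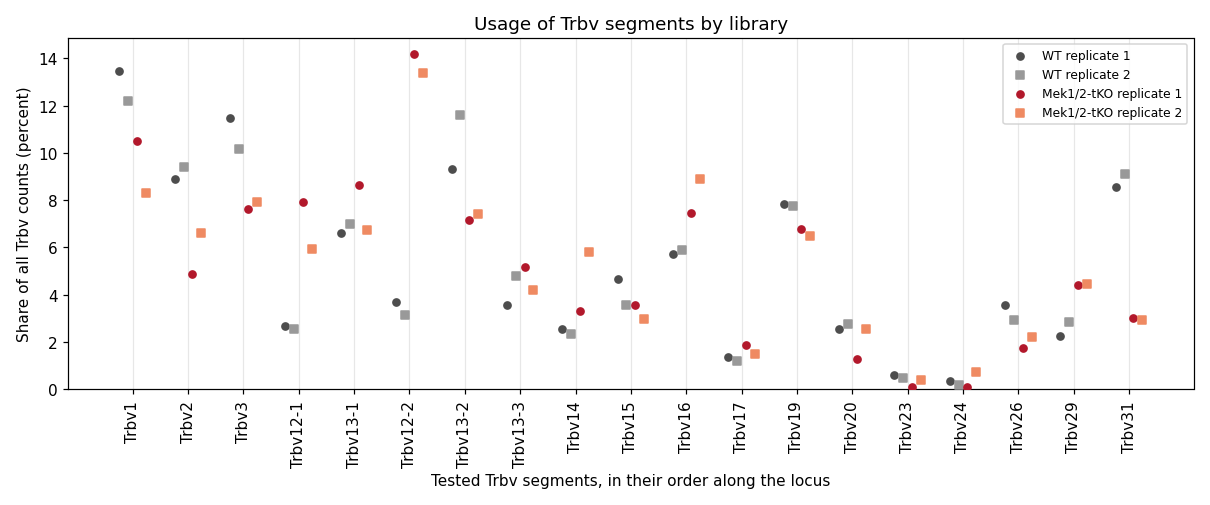
Share of all Trbv counts (percent) on each of the 19 tested Trbv segments, in locus order, with 1 point per library. Trbv12-1 and Trbv12-2 lay higher and Trbv1, Trbv2, Trbv3 and Trbv31 lower in both Mek1/2-tKO libraries.

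To separate a change in the share of a segment from the lower sum, the fit was repeated with the Trbv sum of each library as its size. On this scale the median of all genes was 0.67, 49.0% of all genes were called higher and 3.65% lower, so the share of genes called is no yardstick for the segments, whose sum is level by construction. Of the 19 tested Trbv segments, 4 were called higher and 2 lower. Trbv12-2 (2.02, adjusted p = 5.88e-10), Trbv12-1 (1.41, adjusted p = 2.80e-05) and Trbv31 (-1.56, adjusted p = 1.49e-06) kept their calls without each library in turn. Trbv14 (2.55 and 2.33% in WT against 3.32 and 5.79%; 0.90, adjusted p = 0.0128) and Trbv29 (2.27 and 2.83% against 4.39 and 4.43%; 0.79, adjusted p = 0.0226) were called higher, and Trbv2 (8.91 and 9.42% against 4.88 and 6.63%; -0.67, adjusted p = 0.0123) lower. Those 3 calls were lost without WT replicate 1 and without WT replicate 2, that of Trbv14 also without Mek1/2-tKO replicate 2 and that of Trbv2 also without Mek1/2-tKO replicate 1, with adjusted p up to 0.266 for Trbv14, 0.228 for Trbv29 and 0.130 for Trbv2. Trbv14 and Trbv29 were described after their values were seen, as were Trbv15, Trbv20 and Trbv23.

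In the alpha locus the dv segments stood apart from the others. The 10 dv segments together had 223 and 245 counts in WT and 321 and 376 in Mek1/2-tKO, or 12.1 ± 0.892 CPM against 20.4 ± 0.502, a level 1.69-fold higher. Their share of the Trav counts was 16.3 and 16.9% in WT and 45.0 and 46.3% in Mek1/2-tKO. The other 118 segments fell from 1143 and 1201 counts to 393 and 436, a level 2.49-fold lower. The ratio to Trac without dv segments, given above, was added after the data were seen.

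The dv segments did not move as one. Of the 8 that were tested, 3 were called higher and 2 lower, beside 19.3% and 16.4% of all genes. Among those called, Trav15-2-dv6-2 and Trav15-1-dv6-1 passed the filter on low counts through Mek1/2-tKO and Trav14d-3-dv8 through WT. Their direction was thus set by the filter. Trav13-4-dv7 had 16 and 30 counts in WT and 143 and 161 in Mek1/2-tKO (2.90 ± 0.33, adjusted p = 6.81e-06), and its usage was 1.17 and 2.07% against 20.03 and 19.8%. Trav15-2-dv6-2 had 6 and 5 counts against 57 and 57 (3.53 ± 0.53, adjusted p = 8.10e-05), with usage at 0.439 and 0.346% against 7.98 and 7.02%. Trav15-1-dv6-1 had 6 and 6 counts against 25 and 33 (2.42 ± 0.62, adjusted p = 0.00471). In each of these both Mek1/2-tKO values lay far above both WT values. Trav21-dv12 had 24 and 27 counts against 38 and 55 and missed the threshold (1.03 ± 0.42, adjusted p = 0.0525), but it was called with at least 10 counts required in every library (0.0263) and with all counts halved (0.0375).

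The dv segments that fell included a repeated copy. Trav14d-3-dv8 had 57 and 48 counts in WT and 1 and 8 in Mek1/2-tKO (-3.36 ± 0.65, adjusted p = 6.39e-04). Trav4-4-dv10, the Trav segment with the highest WT level per kilobase, had 65 and 88 counts against 23 and 31 (-1.33 ± 0.37, adjusted p = 0.00824), a call that was lost without WT replicate 2 (0.0885). Trav6-7-dv9 (37 and 28 counts against 19 and 15; -0.73 ± 0.52, adjusted p = 0.255) and Trav16d-dv11 (12 and 13 against 15 and 10; 0.20 ± 0.66, adjusted p = 0.818) were not called. The copies Trav15d-1-dv6d-1 and Trav15d-2-dv6d-2 did not pass the filter, the first with no counts and the second with 6 counts in Mek1/2-tKO replicate 2 alone.

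Genes that mark gamma-delta T cells, in which dv segments can also be used, were higher in the same libraries. Trdc, the delta constant gene, had 32 and 30 counts in WT and 897 and 1006 in Mek1/2-tKO (5.12 ± 0.17, adjusted p = 3.89e-11). The Trdv segments outside the members, which join to the delta chain only, had 19 and 9 counts in sum against 162 and 171. All 13 tested genes of the gamma and delta segments were called higher, beside 19.3% of all genes tested. The list held 24 genes, 3 of which were at 0 in every library. Several of those tested passed the filter on low counts only through Mek1/2-tKO, so their direction was set by the filter. Examples are Tcrg-V3 (0 and 0 counts in WT against 15 and 13) and Trdv5 (0 and 1 against 38 and 38). What share of the reads on dv segments came from delta chains was not tested, because the deposited counts do not link a V segment to its constant gene.

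**Figure D3:**
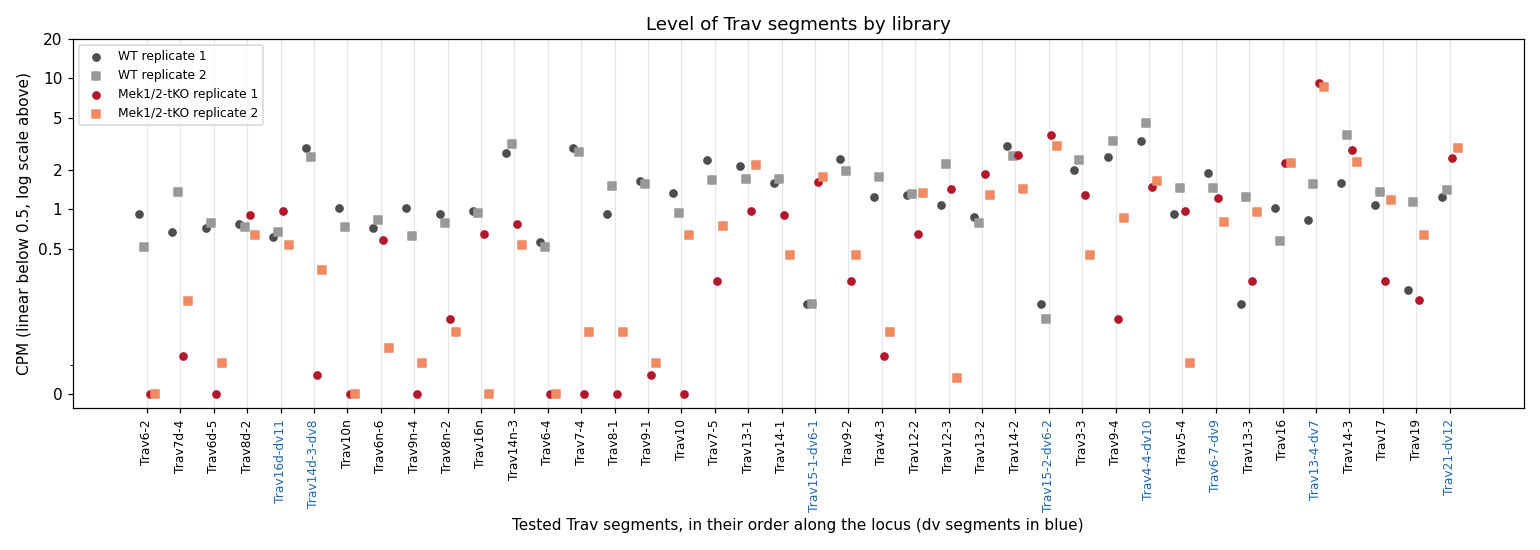
CPM of each of the 40 tested Trav segments in locus order (linear below 0.5 and log above), with 1 point per library and dv segments labelled in blue. Trav13-4-dv7 and Trav15-2-dv6-2 reached 9.23 and 3.68 CPM in Mek1/2-tKO replicate 1, while several segments on the left of the plot had 0 in 1 or both Mek1/2-tKO libraries.

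Outside the dv group 14 of the 32 tested Trav segments were called lower and 1 was called higher, beside 16.4% and 19.3% of all genes. Of these 14, Trav14n-3 alone had at least 10 counts in every library. The others passed the filter on low counts through WT, so their direction was set by it. Trav7-4 had 57 and 53 counts in WT and 0 and 4 in Mek1/2-tKO (-4.54 ± 0.75, adjusted p = 1.76e-04), and its usage was 4.17 and 3.67% against 0 and 0.493%. Trav9-4 had 49 and 64 counts against 4 and 16 (-2.34 ± 0.55, adjusted p = 0.00263). Trav9-1 had 32 and 30 against 1 and 2 (-4.09 ± 0.79, adjusted p = 6.14e-04). All of them were lower in both Mek1/2-tKO libraries, by margins wider than the gap between replicates. Trav10n, Trav6-2 and Trav6-4 were called lower with no counts in either Mek1/2-tKO library. They had 20 and 14, 18 and 10, and 11 and 10 counts in WT, respectively, and no fold is given for them. Trav9-1 and these 3 segments were described after their values were seen.

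The single Trav segment outside the dv group that was called higher was Trav16, with 20 and 11 counts against 35 and 42 (1.48 ± 0.51, adjusted p = 0.0248). This call was lost in DESeq2 (0.0943) and when WT replicate 2 (0.144), Mek1/2-tKO replicate 1 (0.0637) or Mek1/2-tKO replicate 2 (0.0657) was left out. Trav13-2, the close relative of Trav13-4-dv7 shown above, had 17 and 15 counts against 29 and 24 and was not called on the CPM scale (0.92 ± 0.55, adjusted p = 0.173). Trav16 and Trav13-2 were likewise described after their values were seen. Trav13-1 (42 and 33 counts against 15 and 41) and Trav3-3 (39 and 46 against 20 and 9) were not called either, at adjusted p = 0.657 and 0.0521.

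The Trav14 family, which encodes the Vα2 chains, held called and uncalled members. Trav14-3 had 31 and 71 counts in WT and 44 and 43 in Mek1/2-tKO (-0.04 ± 0.43, adjusted p = 0.941), and Trav14-2 had 59 and 49 against 40 and 27 (-0.48 ± 0.42, adjusted p = 0.347). Trav14n-3 had 52 and 61 against 12 and 10 and was called lower (-2.16 ± 0.48, adjusted p = 0.00178), as was Trav14d-3-dv8 above. Trav14-1 had 31 and 33 against 14 and 9 and missed the threshold (-1.27 ± 0.57, adjusted p = 0.0758). The remaining members Trav14d-1, Trav14d-2, Trav14n-1 and Trav14n-2 held at most 8 counts in any library, and none of them had a window of its own, so that few uniquely mapped reads could fall on them. All 9 members together took 17.7 and 18.5% of the Trav counts in WT and 15.5 and 12.3% in Mek1/2-tKO.

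The 2 invariant receptor types have alpha chains of known V and J segments. Trav11 joined to Traj18 marks NKT cells and Trav1 joined to Traj33 marks MAIT cells. Trav1 had 6 and 14 counts in WT and 0 and 0 in Mek1/2-tKO and did not pass the filter. Traj18 had 1 and 2 counts against 0 and 0, Traj33 had none in any library, and Zbtb16, the transcription factor of both cell types, had 0 and 0 against 2 and 1. No J segment count can be read as the number of such cells, since Traj exons were hardly counted at all: the 60 Traj genes together had 72 and 39 counts in WT and 23 and 18 in Mek1/2-tKO.

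The place of a segment in the alpha locus went with its change. Along the chromosome the locus was divided, after the data were seen, into the 8 segments before the d copies, the 39 d copies, the 34 n copies and the 47 segments after them, which lie nearest to the J segments. The first 8 segments had 74 and 70 counts in WT and 4 and 9 in Mek1/2-tKO. The d copies had 195 and 182 against 45 and 59, and the n copies had 208 and 187 against 47 and 44. The last 47 had 889 and 1007 against 618 and 700. In shares of the Trav counts, the last group rose from 65.1 and 69.6% to 86.6 and 86.2%, and the segments before the d copies fell from 5.42 and 4.84% to 0.560 and 1.11%. Without its dv segments the last group was at 735 and 823 counts against 313 and 348, a log2 ratio of -1.05 beside -3.33 for the first segments, -1.68 for the d copies and -1.92 for the n copies.

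Over the 40 tested Trav segments the log2 fold change was higher towards the J segments, with Spearman's rho of 0.57 and Pearson's r of 0.51, and over the 32 without dv rho was 0.58. These are descriptions across segments that share the same 4 libraries, their depth and, among copies, part of their sequence. Some of the segments passed the filter on low counts through WT alone. No such order was seen over the 19 Trbv segments, where rho was -0.15. In the last group 9 of 28 tested segments were called lower and 4 higher, among the n copies 3 of 6 were lower, and among the d copies 3 of 5, beside 16.4% of all genes called lower and 19.3% higher. Of the segments called lower in these groups, only Trav14n-3 and Trav4-4-dv10 had at least 10 counts in every library. The direction of the others was set by the filter, so the shares called do not compare the groups.

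**Figure D4:**
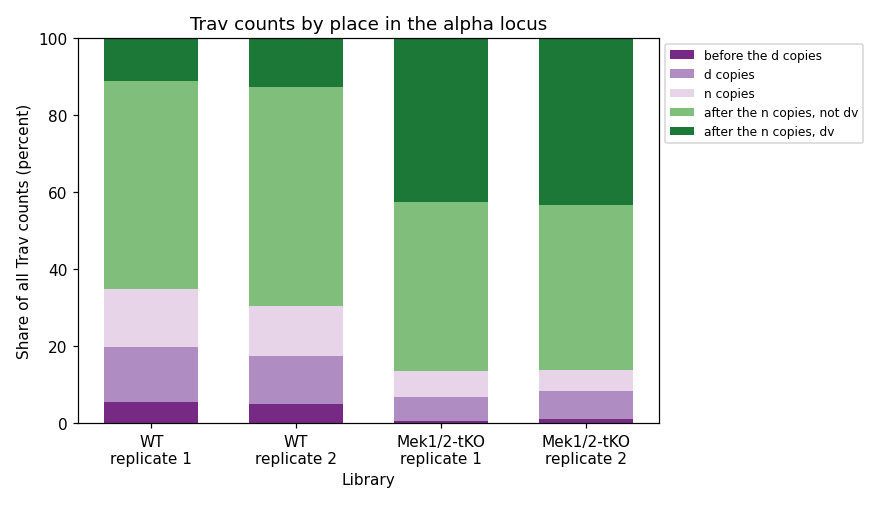
Stacked shares of the Trav counts (percent) in each library by place in the alpha locus. The darkest green part, the dv segments after the n copies, was larger in both Mek1/2-tKO libraries, and the 3 purple parts were smaller.

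On the usage scale, with the Trav sum of each library as its size, 6 of the 40 tested Trav segments were called higher and 13 lower. On that scale 52.0% of all genes were called higher and 3.5% lower, around a median of 0.71. The larger share of the dv segments in Mek1/2-tKO lowers that of every other segment, and no usage fit without them was run. With shares taken without dv segments, usage did not overlap and was higher for 7 segments and lower for 13, beside 9 and 19 with them. Of the 13 called lower in the fit, Trav14n-3 alone had at least 10 counts in every library. Trav13-4-dv7 (3.60, adjusted p = 2.31e-25), Trav15-2-dv6-2 (4.22, adjusted p = 6.33e-12), Trav15-1-dv6-1 (3.12, adjusted p = 2.57e-05), Trav21-dv12 (1.73, adjusted p = 6.43e-04) and Trav16 (2.17, adjusted p = 2.24e-04) were called without each library in turn. Trav13-2 (1.61, adjusted p = 0.0146) was not, without WT replicate 2 or Mek1/2-tKO replicate 1. Among the lower ones Trav7-4 (-3.86, adjusted p = 1.33e-06), Trav14d-3-dv8 (-2.66, adjusted p = 1.43e-04) and Trav9-1 (-3.42, adjusted p = 4.48e-04) kept their calls without each library, while that of Trav9-4 (-1.63, adjusted p = 0.00631) was lost without WT replicate 2 or Mek1/2-tKO replicate 1. Without WT replicate 2 the number called lower was 8.

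**Figure D5:**
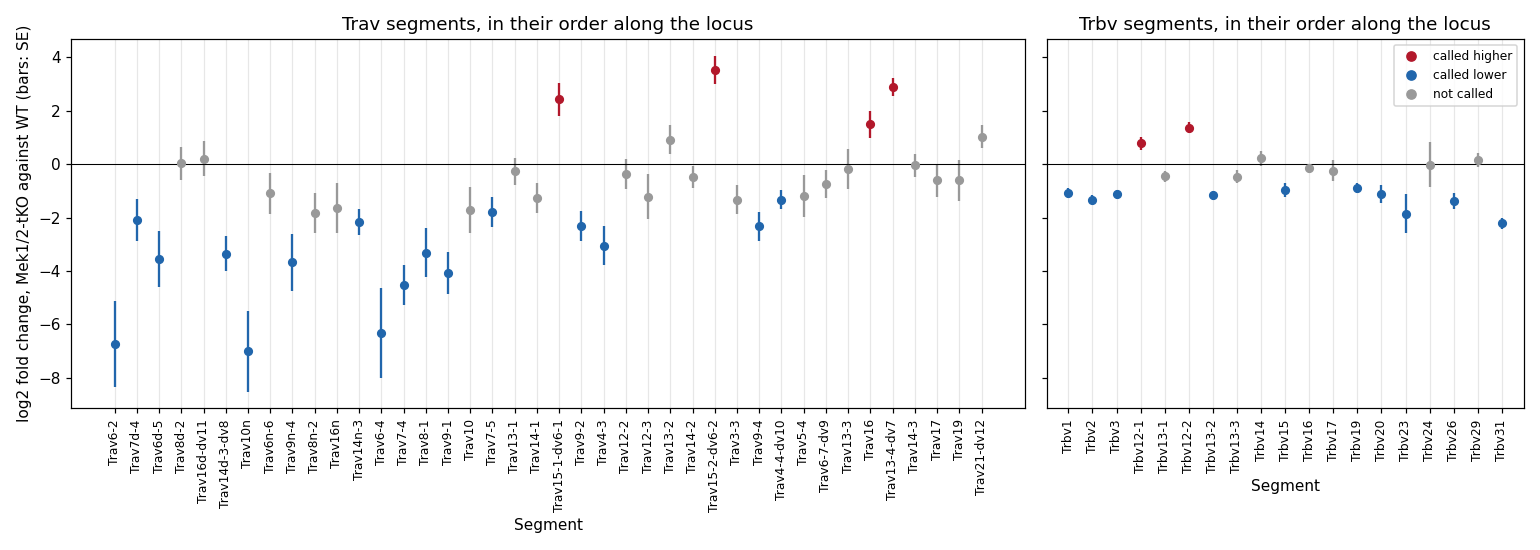
Log2 fold change of Mek1/2-tKO against WT with its SE for each tested segment, Trav on the left and Trbv on the right, in locus order. Red marks the 6 segments called higher, blue the 26 called lower and grey the rest; the widest bars belong to segments with no counts in Mek1/2-tKO.

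As whole profiles, the alpha chain was spread over fewer segments in Mek1/2-tKO, while the beta chain was spread over a like number of segments with other shares. Trav segments with at least 10 counts numbered 44 and 47 in WT and 20 and 21 in Mek1/2-tKO. Thinned by calculation to the 714 counts of the shallowest library, 78.8 and 76.0 segments would be detected in WT and 51.0 and 59.1 in Mek1/2-tKO. The effective number of Trav segments, the exponential of Shannon's entropy, was 56.6 and 53.2 in WT and 25.0 and 26.7 in Mek1/2-tKO. Without the dv segments it was 51.5 and 48.3 against 26.2 and 28.3. The 5 leading segments took 21.2 and 23.3% of the Trav counts in WT and 45.1 and 44.1% in Mek1/2-tKO. For Trbv the effective number was 15.1 and 14.8 against 14.8 and 15.9, a difference smaller than the spread between libraries.

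The distance between profiles was taken as the share of counts that would have to move to other segments to make them equal. Between libraries of different genotype it was 49.8 to 53.7% for Trav and 23.1 to 24.7% for Trbv over 4 pairs each. Between replicates it was 20.5 and 24.1% for Trav and 5.95 and 9.22% for Trbv. Every pair across genotypes was thus farther apart than every pair of replicates in both loci. When segments were merged into families, the distances were 39.9 to 45.3% across genotypes and 9.17 and 13.3% between replicates for Trav. Without the dv segments the Trav distances were 45.2 to 50.03% across genotypes, 22.1% between the WT replicates and 37.6% between the Mek1/2-tKO replicates.

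Other genes of the receptor did not fall together. Of the 16 genes listed for the receptor complex and its proximal signalling 9 were called lower, beside 16.4% of all genes, with a median log2 fold change of -0.75. CD3 genes were unequal. Cd3e had 1789 and 1768 counts against 680 and 829 (-1.06 ± 0.095, adjusted p = 7.20e-07) and Cd247, the zeta chain, had 3485 and 3512 against 1665 and 1913 (-0.79 ± 0.081, adjusted p = 2.60e-06). Cd3d (0.20 ± 0.097, adjusted p = 0.0945) and Cd3g (0.24 ± 0.082, adjusted p = 0.0254) were not called. Both differences stayed under 1.5-fold, and that of Cd3d also missed the p threshold. Thy1, a marker of T cells in general, had 10925 and 11061 counts against 15801 and 18733 and rose by 0.83 ± 0.073 (adjusted p = 5.58e-07). Cd8a had 690 and 597 counts against 2279 and 2442 (2.06 ± 0.11, adjusted p = 3.03e-09) and Cd8b1 had 624 and 546 against 1405 and 1576 (1.53 ± 0.11, adjusted p = 6.61e-08).

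Of the 74 J segments 11 were tested, all in the beta locus, with a median log2 fold change of -0.25. Of these 1 was called higher and 0 lower, beside 19.3% and 16.4% of all genes. Trbj1-1 was the 1 called, with 9 and 7 counts against 20 and 25, higher in both Mek1/2-tKO libraries (1.65 ± 0.62, adjusted p = 0.0373), a call lost whichever library was left out, and in DESeq2. Trbj1-1 passed the filter on low counts through Mek1/2-tKO, so its direction was set by it. The 14 Trbj genes together had 348 and 380 counts in WT and 228 and 323 in Mek1/2-tKO. The markers of thymocytes stayed near the limit of detection. Rag2 and Ptcra were at 0 in every library, Rag1 had 0 and 0 counts against 2 and 2, and Dntt had 12 and 14 against 12 and 0 (adjusted p = 0.48). Of the 3 myeloid markers the 1 tested, Lyz2, was called higher (8 and 12 counts against 158 and 117), beside 19.3% of all genes. Lyz2 passed the filter on low counts through Mek1/2-tKO, so its direction was set by it. The list was at 0.513 and 1.04 CPM in WT and 12.7 and 7.18 in Mek1/2-tKO.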

How the data were processed

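RNA of Tfh-polarized T cells was sequenced as 150-base read pairs, with 2 libraries per genotype. The authors trimmed reads with Trimmomatic 0.36, mapped them to GRCm38/mm10 (mapper written as STRA), and counted uniquely mapped reads per gene (featureCounts, Subread 1.5.1). The deposited values are raw counts per gene, with no normalization. The annotation release, strand and pair settings are not given in the sources used here. Of deposited counts between 1 and 12, 66.2 to 68.9% were even, beside 49.4 to 50.8% at 100 or more, so most pairs entered as 2 reads and counting intervals use halved counts.

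Symbols were matched to 54723 of 54752 identifiers. Of the identifiers, 53861 were also in GENCODE M21, all with the same coordinates, and sequences were read from its transcripts. Gamma genes (Tcrg-) were matched through RefSeq synonyms (GRCm38.p6). The whole table was fitted in R 4.3.3 by the robust quasi-likelihood test of edgeR 4.0.16, after filterByExpr and TMM scaling, with Benjamini-Hochberg adjustment over all tested genes. A usage fit used the Trav or Trbv sum as library size. DESeq2 1.42.0, other scalings and filters, a replicate block and leaving out each library were alternatives. The fits were tested on simulated data. Replicates differed by more than sampling noise (chi-square per gene 4.19 in WT and 10.9 in Mek1/2-tKO). Figures and sums were made with Python 3.11.15, pandas 2.3.3 and matplotlib 3.10.9.

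The members and lists were chosen with earlier results of these data known. Genes described by name were the 10 Trav and 10 Trbv segments with the highest mean CPM, in each direction up to 5 called segments that changed most on the log2 scale and had a mean log2 CPM of 1 or more and, per locus, the 3 with the largest usage difference at a mean usage of at least 1%. Trav1, Trav11, Trav11d, the Trav14 family, Trbv12-1, Trbv12-2, the dv segments and genes of the receptor complex and other cell types were always included. One gene of the B-cell markers is not reported here.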

Additional observations from a re-analysis of the deposited data

How the results depend on the processing

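Both sums kept their direction under DESeq2 size factors, under library size alone and without each library. Relative to Trac the log2 ratio of the Trav sum was 0.28, the reverse of -0.70 on the CPM scale. Without dv segments the log2 ratio was -1.32, and without d and n copies it was -0.43. V segments called higher numbered 3 without dv segments, and those called lower numbered 11 when at least 10 counts were required in every library, a filter that leaves 30 members tested. Merged into families, 4 Trav families had higher and 8 lower usage without overlap, beside 9 and 19 segments; the Trav effective number differed by -2.78 (-22.7 without dv segments), beside -29.0; and the mean Trav distance between genotypes was 42.5% (46.8% without dv segments), beside 51.8%. For Trbv, families gave an effective number difference of -0.58 beside 0.41 and a distance of 22.4% beside 23.7%. With at least 100 counts required, 5 Trav segments were called lower in the usage test.

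Without 1 library at a time, V segments called numbered 4 to 6 higher and 23 to 26 lower, Trav segments with higher usage and no overlap 9 to 14, Trav segments lower in the usage test 8 to 12, and Trbv segments in the usage test 2 to 5 higher and 1 to 4 lower. The log2 fold changes of uncalled genes ran through 0: Trav13-1 from -1.001 to 0.18, Trav14-3 from -0.52 to 0.68, Trav16d-dv11 from -0.27 to 0.57, Trbv14 from -0.11 to 0.49 and Trbc2 from -0.12 to 0.048. J segments called higher numbered 0 without each library (0 to 1 lower), 0 in DESeq2 and 0 under the block. The cause of these changes was not tested.

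Whether the replicate numbers pair the libraries is not known. Deviations of same-numbered libraries correlated at -0.020 across genes, but with 2 libraries per genotype this cannot exclude pairing. With the replicate number as a block, 6 V segments were called higher and 24 lower, the usage test gave the counts of the fit without it, and the log2 fold change of Trav14-3 was 0.037. The calls of Trav7d-4 (adjusted p = 0.0546) and Trbv23 (0.0794) were lost. Halved counts and shares per length were tried after the data were seen: 7 and 20 segments were called with halved counts, and shares per length gave Trav and Trbv distances of 51.5 and 24.1%. With 714 to 1446 counts on Trav per library, segments of a few counts could not be compared.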
